A study of Mus musculus with 2 samples.

Results

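The genes described here are the 6 mouse hairpins of the Mir99/Mir100 and Mir125 families, Mir99a, Mir99b, Mir100, Mir125a, Mir125b-1 and Mir125b-2, out of 1973 miRNA genes in the deposited tables. They were chosen by gene symbol and not by their values, though with earlier results of these data known, and all 6 were found in both tables. The tissue was the facial prominence of B6NCrl mouse embryos at embryonic day 10.5, the outgrowths of mesenchyme and surface epithelium that build the face and jaws. Both libraries belong to 1 group without treatment, and each is a pool of healthy embryos of both sexes, 69 embryos in replicate 1 and 51 in replicate 2. The pools are labelled as biological replicates. With only 2 libraries of 1 kind, levels were compared between genes, and the pools were compared with each other.

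Mir99 with Mir100, and Mir125, are highly conserved families that sit together with a let-7 gene at 3 paralogous loci in vertebrates. miR-125 is the vertebrate counterpart of lin-4, a miRNA that times development in worms, and let-7 is the next switch in that timing pathway. Lin28, an RNA-binding protein of early embryonic cells, blocks let-7 maturation and is itself a target of miR-125 and let-7. Known targets of miR-99 and miR-100 include components of the mTOR growth pathway.

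The mature sequences show how the members fall into their groups. They were taken from RefSeq (GRCm38.p6), where all 6 genes had an entry, and are written 5′ to 3′ with the seed, bases 2 to 8 that pair with a target, in capitals. The first set holds the 5p arms, which separate the families by seed.
miR-99a-5p: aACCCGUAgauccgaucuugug
miR-99b-5p: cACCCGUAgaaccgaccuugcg
miR-100-5p: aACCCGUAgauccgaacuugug
miR-125a-5p: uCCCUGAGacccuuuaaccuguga
miR-125b-5p, made by both Mir125b-1 and Mir125b-2: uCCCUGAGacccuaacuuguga
Mir99a, Mir99b and Mir100 share 1 seed, and the Mir125 genes share the other. Counted from 1 at the 5′ end, miR-99a-5p and miR-100-5p differ by the single substitution U16A, outside the seed. From miR-99a-5p to miR-99b-5p there are 4 substitutions, A1C, U11A, U16C and U21C, again none in the seed. The 5p arms of Mir125a and the Mir125b genes are identical over their first 13 bases and differ in length, 24 against 22 bases.

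The 3p arms matter for what can be counted, because they are where the Mir125b copies differ.
miR-125b-1-3p: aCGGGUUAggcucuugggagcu
miR-125b-2-3p: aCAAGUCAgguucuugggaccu
These arms differ at 5 of 22 positions (G3A, G4A, U7C, C11U and G20C, from miR-125b-1-3p to miR-125b-2-3p), 3 of them inside the seed. Each mature sequence of the members was searched in 2201 annotated miRNA hairpins. Of 12 entries, 2 occurred in a further hairpin, and both are miR-125b-5p, found in Mir125b-1 and Mir125b-2. The other 10 entries were found in their own hairpin alone, also when trimmed to their first 18 bases. Reads that mapped to several places stand in a summary line of the deposited tables and in no gene's count. A read of miR-125b-5p alone fits both Mir125b hairpins, so the counts of these genes are not a measure of that arm, and the levels of both Mir125b genes are uncertain for this reason. The tables do not give counts by arm.

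Levels are given as CPM, a gene's count on its own strand scaled to the library's sum of such counts, and as mean ± SD over the 2 libraries. The libraries held 2853511 and 3517226 such counts, so that a gene with no read could still have had up to 3 counts, or 1.05 and 0.853 CPM. PCR copies are not independent molecules, so every interval and test on these counts speaks of the counting error of reads alone. Markers of the labelled tissue were present, with 5 of 5 mesenchymal genes detected (at least 10 counts in each library; summed level 24651 and 21977 CPM in replicates 1 and 2) and 7 of 7 surface epithelial genes (28691 and 23965 CPM). Endothelial Mir126a stood at 31642 and 34369 CPM, while erythroid (420 and 205 CPM), leukocyte (429 and 419 CPM), neuronal (723 and 630 CPM) and striated muscle genes (26.6 and 11.4 CPM) were low, with the muscle genes Mir133a-1 and Mir133a-2 at 0 counts. Of the matched genes, 5 of 6 neuronal and 4 of 5 muscle genes, both Mir133a genes among them, share a stretch of 18 bases with another hairpin. Reads that map to several places are missing from these sums, and low values there do not measure those miRNAs. Such a stretch was also found in 2 of 3 erythroid genes (Mir451a and Mir486), 2 of 5 mesenchymal genes (Mir199a-1 and Mir199a-2) and Mir126a. The levels of these genes may miss reads too. None of the surface epithelial and matched leukocyte genes held one. Mir142, Mir9-1 and Mir1a-2 had no matched row. In a whole tissue, fewer cells of a type and less RNA per cell cannot be told apart.

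The 6 genes together held 84751 CPM in replicate 1 and 79199 CPM in replicate 2, or 8.48% and 7.92% of all counts (8.20% ± 0.393, n = 2). Nearly all of this came from the genes with the miR-99 and miR-100 seed, with 79940 and 74875 CPM, against 4811 and 4324 CPM for the Mir125 genes. The first sum was 16.6 times the other in replicate 1 and 17.3 times in replicate 2. The sum of the Mir125 genes leaves out the reads of miR-125b-5p that map to both hairpins.

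Mir99a, on chromosome 16 (77598936 to 77599000, plus strand, mm10; ENSMUSG00000065530.1), was the highest member. Its counts were 123037 and 135888, or 43118 CPM in replicate 1 and 38635 CPM in replicate 2 (40876 ± 3170 CPM). It lies in an intron of its non-coding host transcript Mir99ahg and took 50.9% and 48.8% of the members' reads. Its share of all counts was 4.31% in replicate 1 (exact Clopper-Pearson 95% interval 4.29% to 4.34%) and 3.86% in replicate 2 (3.84% to 3.88%), so these intervals do not overlap.

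Mir99b (chromosome 17, 17830188 to 17830257, plus strand; ENSMUSG00000065396.1) came next, in an intron of Spaca6, a gene known for its role in sperm-egg fusion. It had 25929 CPM in replicate 1 and 24500 CPM in replicate 2 (25214 ± 1011 CPM). Mir100 (chromosome 9, 41531425 to 41531504, plus strand; ENSMUSG00000093011.1) had 10893 and 11740 CPM (11317 ± 599 CPM). Unlike Mir99a and Mir99b it was the higher in replicate 2. It lies in introns of the non-coding genes 3110039I08Rik and Gm49317. Genes on the opposite strand overlap Mir99a (Gm11146) and Mir100 (Gm48742). No opposite-strand read was counted at either hairpin, and 1 read over all members and both libraries was counted on that strand, at Mir99b in replicate 2.

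Mir125a (chromosome 17, 17830812 to 17830879, plus strand; ENSMUSG00000065479.1) was the highest gene of its seed group, with 2801 CPM in replicate 1 and 2596 CPM in replicate 2 (2698 ± 145 CPM). It overlaps an exon of Spaca6, and neither arm has a copy in another hairpin. The counts of both Mir125b genes leave out reads of miR-125b-5p that map to both hairpins, so Mir125a was the highest by recorded counts only. Mir125b-1 (chromosome 9, 41581926 to 41582002, plus strand; ENSMUSG00000093354.1) had 1594 and 1303 CPM (1449 ± 206 CPM). It lies in an exon of Gm28119 and in introns of 3110039I08Rik and Gm49317. Mir125b-2 (chromosome 16, 77646273 to 77646343, plus strand; ENSMUSG00000065472.1), in an intron of Mir99ahg, was the lowest member with 416 and 425 CPM (420.5 ± 6.86 CPM) from 1186 and 1496 counts.

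**Figure D1:**
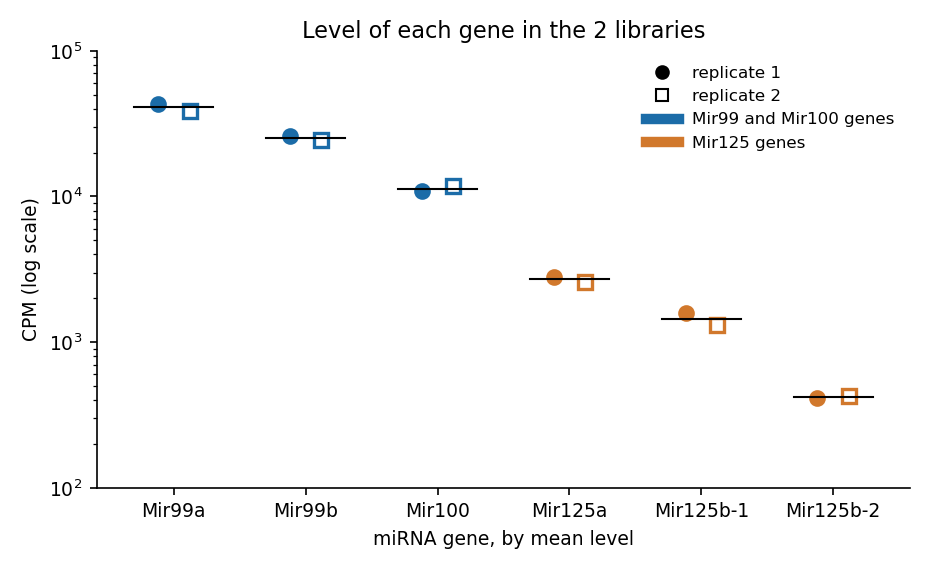
CPM on a log scale of the 6 genes in replicate 1 (filled circles) and replicate 2 (open squares), with the mean as a line. The libraries lie close together for each gene while the genes step down from Mir99a at 40876 CPM to Mir125b-2 at 420.5 CPM.

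The order from Mir99a through Mir99b, Mir100, Mir125a and Mir125b-1 to Mir125b-2 was the same in both libraries. All 5 pairs of neighbours in this order were separated by more than the difference between the pools. The order is that of recorded counts, and the places of Mir125b-1 and Mir125b-2 are uncertain because reads of miR-125b-5p that map to both hairpins are left out. The narrowest gap was between Mir99a and Mir99b, 1.66-fold in replicate 1 and 1.58-fold in replicate 2, while either gene differed by at most 1.12-fold between the pools. Mir100 exceeded Mir125a by 3.89-fold and 4.52-fold, the step from the miR-99 and miR-100 seed to the miR-125 seed. With 2 libraries no exact permutation test between genes can reach 0.05. Reads cover 1 mature arm each and were not divided by gene length. The order was also the same per base of hairpin (65 bases for Mir99a to 80 for Mir100).

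Among all miRNA genes by mean CPM, Mir99a ranked 3, Mir99b 9 and Mir100 18, and Mir125a, Mir125b-1 and Mir125b-2 ranked 63, 91 and 135. Between the libraries these places are less firm than the order of recorded counts within the family. For 5 of the 6 members the order with the gene just above differed between the libraries, and for 3 so did the order with the gene just below. Mir99a, for example, was above Mir20a, of the growth-promoting Mir17-92 cluster, in replicate 1 (43118 against 38641 CPM) and below it in replicate 2 (38635 against 40967 CPM). Mir99a was below Mir17 in both libraries (103291 and 99861 CPM for Mir17).

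**Figure D2:**
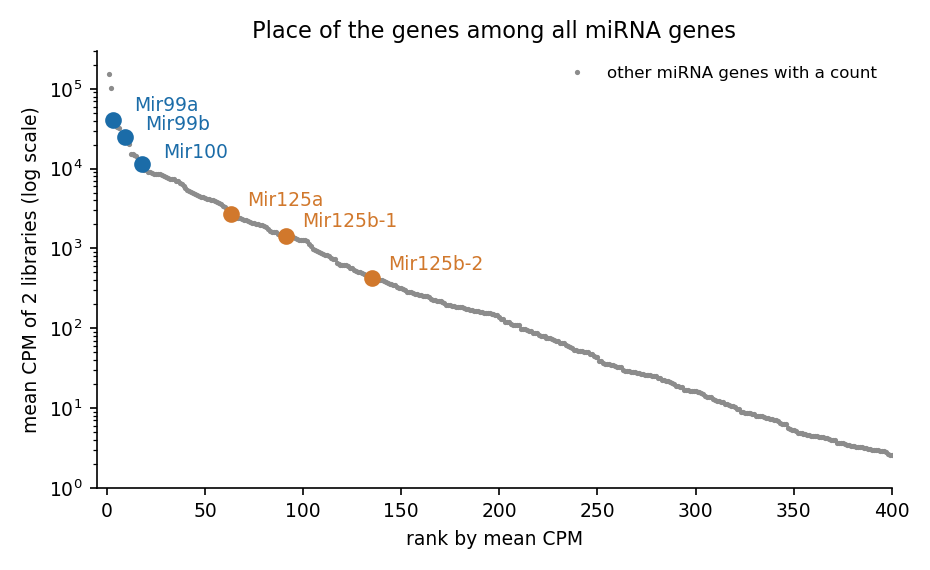
Mean CPM of the 2 libraries on a log scale against rank, for all miRNA genes over the upper ranks (grey) and the 6 members (colours). Mir99a, Mir99b and Mir100 sit at ranks 3, 9 and 18 on the steep left part of the curve, and the Mir125 genes at ranks 63, 91 and 135.

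Each locus has the same arrangement on the plus strand, a Mir99 or Mir100 gene first, then a let-7 gene, then a Mir125 gene, but the distances differ. On chromosome 17 the members and let-7e lie within 692 bases, while those on chromosomes 16 and 9 span 47.4 kb and 50.6 kb. The summed level of the 2 members was 43533 and 39060 CPM on chromosome 16, 28730 and 27096 CPM on chromosome 17, and 12487 and 13043 CPM on chromosome 9. The loci kept this order in both libraries, and the levels on chromosome 16 and 17 were the lower in replicate 2 and that on chromosome 9 the higher.

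At all 3 loci the first gene was well above the Mir125 gene, though not by the same factor. On chromosome 16, Mir99a had 104 times the CPM of Mir125b-2 in replicate 1 and 90.8 times in replicate 2. Mir99b exceeded Mir125a on chromosome 17 by 9.26-fold and 9.44-fold, and Mir100 exceeded Mir125b-1 on chromosome 9 by 6.83-fold and 9.01-fold. The factor on chromosome 16 was thus far above the others in both libraries, while those on chromosomes 17 and 9 were close in replicate 2. Chromosome 17 is the locus where both members' arms have no copy in another hairpin, and the factors on chromosomes 16 and 9 rest on the uncertain Mir125b counts.

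The let-7 genes between them were at very different recorded levels. Mirlet7c-1 on chromosome 16 had 58 and 69 counts (20.3 and 19.6 CPM), and Mirlet7a-2 on chromosome 9 had 57 and 42 counts (19.98 and 11.9 CPM). Both values are uncertain in the same way as those of the Mir125b genes, since let-7c-5p is also held by Mirlet7c-2 and let-7a-5p by Mirlet7a-1. Mirlet7e on chromosome 17 has a 5p arm with no copy in another hairpin. Its identifier had no row in the tables, but the gene Gm25927 overlaps it on the other strand, and reads on the strand of Mirlet7e there gave 2396 and 1814 CPM in replicates 1 and 2. The 5p arms of let-7c and let-7e are printed here because they share a seed and yet differ in whether another hairpin holds them.
let-7c-5p: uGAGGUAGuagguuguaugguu
let-7e-5p: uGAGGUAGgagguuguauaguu
On chromosome 17 the recorded let-7 level was below Mir125a in both libraries (2801 and 2596 CPM) and further below Mir99b (25929 and 24500 CPM).

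**Figure D3:**
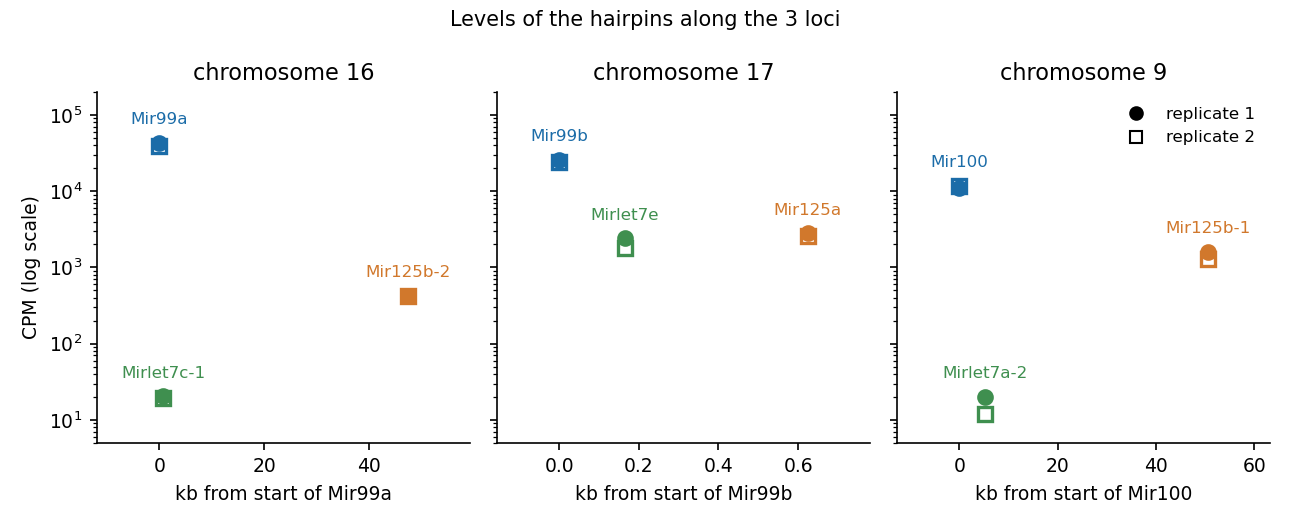
CPM on a log scale against distance in kb from the start of the first hairpin, at the loci on chromosomes 16, 17 and 9, with replicate 1 as filled circles and replicate 2 as open squares; the value of Mirlet7e is that of reads opposite Gm25927. The first gene is the highest at each locus, and Mirlet7c-1 and Mirlet7a-2 lie at 20.3 CPM or below while Mirlet7e lies at 1814 CPM or above.

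The pools differed little in these genes, though often by more than the counting error of independent reads. With PCR copies among the reads, the error in molecules may be larger. A two-sided exact binomial test set the count in replicate 2 against that in replicate 1 for every gene that reached 10 counts over both, with Benjamini-Hochberg adjustment over the 449 genes tested. The test compares these 2 libraries and not conditions. It called 40.3% of the genes tested, and 85.2% of the 135 genes with at least the 2682 counts of the lowest member, so that at such counts a call is the rule. Of the 6 members 5 were called, 4 lower and 1 higher in replicate 2. Over the genes tested, of all depths, 20.3% were called lower and 20.0% higher. Of the 135 genes, called or not, 62 were lower and 73 higher in replicate 2. None of the 6 was called with a difference of at least 1.5-fold, against 9.35% of the genes tested and 7.41% of the 135.

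Mir125b-1 differed most among the members, with a log2 ratio of replicate 2 over replicate 1 (0.5 CPM added) of -0.29 (1.22-fold higher in replicate 1; exact binomial test, adjusted p = 4.48e-21). Mir99a had a log2 ratio of -0.16 (1.12-fold higher in replicate 1; exact test, adjusted p = 3.11e-169), the smallest adjusted p among the members and the deepest count. Mir125a stood at -0.11 (exact test, adjusted p = 2.87e-06) and Mir99b at -0.08 (adjusted p = 1.06e-28). Mir100 was the only called member that was higher in replicate 2, at 0.11 (1.08-fold; exact test, adjusted p = 1.30e-22). Mir125b-2, at 0.03, did not pass (exact test, adjusted p = 0.72).

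Beside miRNA genes of like depth, the members' ratios ranged from small to above the median. The SD of the log2 ratio over the 320 genes averaging 10 CPM or more was 0.39 and the median absolute ratio 0.18, which only Mir125b-1 exceeded among the members. Over the 135 genes of similar or higher depth the median absolute log2 ratio was 0.16, and over the members it was 0.11. Of these 135 genes, 32 had a larger absolute ratio than Mir125b-1, 68 than Mir99a and 120 than Mir125b-2. In recorded counts the members of 1 locus did not always move in the same called direction. On chromosome 9 Mir100 was higher and Mir125b-1 lower in replicate 2, while on chromosome 17 Mir99b and Mir125a were both lower. The split on chromosome 9 rests on the count of Mir125b-1, which leaves out reads of miR-125b-5p that map to both Mir125b hairpins.

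**Figure D4:**
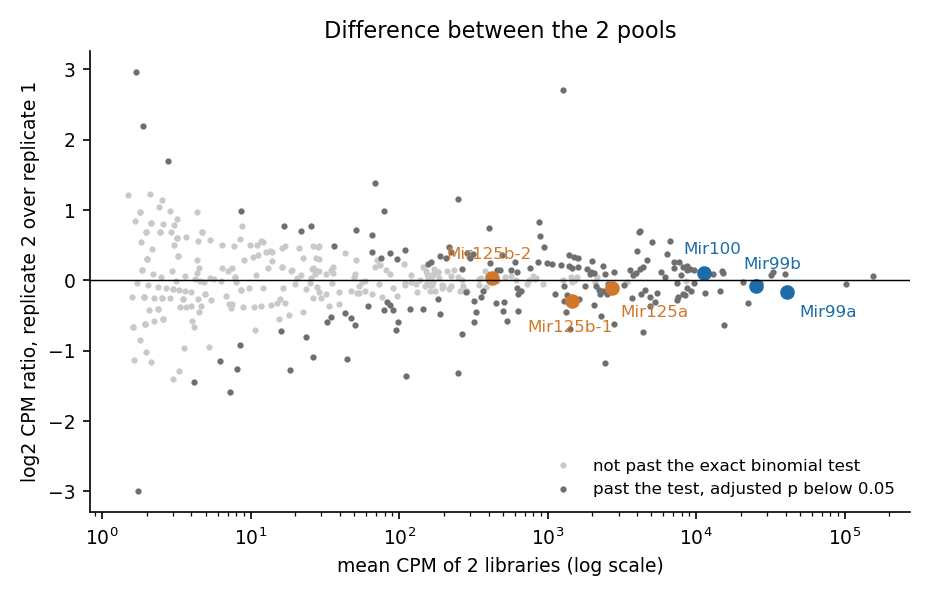
Log2 ratio of CPM in replicate 2 over replicate 1 against mean CPM on a log scale, for the genes tested (light grey, not past the exact binomial test; dark grey, past it) and the 6 members in colours. The members lie between -0.29 and 0.11, close to the line at 0.

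The let-7 family acts in the same timing pathway as miR-125. Of 12 let-7 family genes listed, 10 were matched and tested, and 7 were called lower and 0 higher in replicate 2, beside 20.3% of all genes tested called lower and 20.0% called higher. The median log2 ratio was -0.71 over the 10, -0.10 over the 6 members and 0.01 over all genes tested. The ranges overlap, as Mirlet7c-1 (-0.05) and Mirlet7a-1 (-0.11) lay above Mir125b-1 (-0.29) and Mir99a (-0.16). Of the 10 let-7 genes, 8 share a stretch of 18 bases with another hairpin, so their counts may leave out reads that map to several places. Some were shallow, such as Mirlet7c-2 with 9 and 7 counts in replicates 1 and 2. At the members' own loci, Mirlet7a-2 had a log2 ratio of -0.72 (exact binomial test, adjusted p = 0.03) and Mirlet7c-1 did not pass (adjusted p = 0.93). The reads on the strand of Mirlet7e had a log2 ratio of -0.40 and were not tested. The difference between the let-7 genes and the members was itself not tested. The summed markers of surface epithelium, mesenchyme, erythroid cells, leukocytes, neurons and striated muscle were also the lower in replicate 2, and endothelial Mir126a was the higher. The sums of erythroid cells (420 against 205 CPM) and striated muscle (26.6 against 11.4 CPM) fell most, but such sums do not stand for every gene listed. Of 3 erythroid genes tested, only Mir451a was called, and Mir486 had a log2 ratio of 0.32. Of 4 neuronal genes tested, 2 were called higher and 2 lower. Of 2 leukocyte genes 0 were called, and Mir206 was the only muscle gene tested. The part of these cell types in the ratios of the let-7 genes and the members was not tested.

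Mir10a and Mir10b, made in the Hox clusters that pattern the body axis, are relatives of miR-99 and miR-100 in sequence. They are shown here because their 5p arms hold a long stretch of miR-99a, miR-99b or miR-100 shifted by 1 base.
miR-10a-5p: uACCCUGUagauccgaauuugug
miR-10b-5p: uACCCUGUagaaccgaauuugug
The longest run shared by miR-100-5p and miR-10a-5p was 11 bases (guagauccgaa), starting at position 6 of miR-100-5p and 7 of miR-10a-5p. From the same positions, miR-99a-5p shared 10 bases with miR-10a-5p, and miR-99b-5p shared 10 bases with miR-10b-5p (guagaaccga). The seeds of miR-10a-5p and miR-10b-5p differ from that of miR-99 and miR-100. Mir10a had 156 CPM in replicate 1 and 347 CPM in replicate 2, and Mir10b had 149 and 178 CPM, far below the 10893 and 11740 CPM of Mir100. Both were called higher in replicate 2 (exact binomial test, adjusted p = 5.23e-51 and 0.013), with log2 ratios of 1.15 and 0.26. Of all genes tested, 40.3% were called and 20.0% were called higher.

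No mature miRNA in the RefSeq table other than those of Mir99a, Mir99b and Mir100 held the miR-99 and miR-100 seed. The miR-125 seed was held by 3 further genes, of which Mir6394 and Mir6367 had 0 counts in both libraries. The other was Mir351, on chromosome X, whose 5p arm is printed here because it shares its first 8 bases with miR-125b-5p and no longer run.
miR-351-5p: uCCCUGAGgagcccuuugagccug
Mir351 had 2677 CPM in replicate 1 and 2338 CPM in replicate 2 (2508 ± 239 CPM, rank 65), next to Mir125a at 2801 and 2596 CPM. Mir125a was above Mir351 in both libraries by less than Mir351 differed between them. In recorded gene counts Mir351 was above Mir125b-1 and Mir125b-2 together (2010 and 1728 CPM) in both libraries. Mir351 also was called lower in replicate 2, with a log2 ratio of -0.20 (exact binomial test, adjusted p = 1.20e-16).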

How the data were processed

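MicroRNA libraries with inserts under 30 nt were made from total RNA, per the labels. The deposited tables hold raw counts per annotated miRNA gene on mm10 with GENCODE M4, 1 table per library, per the text files deposited with them. Which aligner was used is not given in the sources used here. Ahead of the genes, the first 4 lines are summaries, left out of the library sizes because they belong to no gene. In replicates 1 and 2 they held 21.6% and 24.1% unmapped reads, 27.6% and 25.9% mapping to several places and 9.01% and 9.32% outside the genes, of 6828248 and 8643947 reads. Each gene has counts on either strand, on its own strand and on the opposite strand, a reading tested on the values. The count on its own strand was used.

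Symbols, coordinates and hosts came from GENCODE M21 (same build) by identifier without version, and 1894 of 1973 matched. Mature sequences came from RefSeq. Identical copies were searched in the GENCODE miRNA hairpins, not in the genome. CPM and log2 ratios (pseudocount 0.5 CPM) were computed with Python 3.11.15 and SciPy 1.17.1. So were exact binomial tests with Benjamini-Hochberg adjustment (threshold 0.05) over all genes with at least 10 counts. The test was checked on simulated counts with counting error alone, so the check does not cover PCR copies or spread between pools. edgeR 4.0.16 and DESeq2 1.42.0 gave alternative library sizes only. Neighbours in the order of levels were called separated where the order held in both libraries and their ratio in each exceeded the larger of their own ratios between libraries.

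All 6 members, the let-7 genes at their loci, rank neighbours where needed and the 3 genes with the most similar ratio are named. Mir10a, Mir10b, the let-7 genes elsewhere and the marker genes were named from lists, and genes sharing a seed with the members were named after their values were seen; all of these lie outside that rule. The members and lists were chosen with earlier results of these data known.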

Additional observations from a re-analysis of the deposited data

Results flagged for a closer look

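Gm25927 on chromosome 17 had 0 counts on its own strand, but reads on the opposite strand, a column used in the report only for Mirlet7e and to check the members, gave 2396 and 1814.5 CPM in replicates 1 and 2. That is far above the 1.05 and 0.853 CPM that a count of 0 allows. The strand is that of Mirlet7e, which Gm25927 overlaps and which lies between Mir99b and Mir125a. Among the 6 members the same column held 1 read, at Mir99b in replicate 2.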

How the results depend on the processing

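The summed levels moved with the library size. Scaled to all reads of the library the 6 members summed to 33822 CPM, Mir99a, Mir99b and Mir100 to 31937 CPM and the Mir125 genes to 1885 CPM. Without the 2 highest genes in the total these sums were 110096, 103961 and 6134 CPM, against 81975, 77407 and 4568 CPM as reported. With edgeR's TMM sizes and with counts on either strand they stayed within 1 SD. Leaving out a replicate gave 79199 to 84751, 74875 to 79940 and 4324 to 4811 CPM. With 2 libraries such values always lie within 1 SD of the mean, so leaving out a replicate says nothing on how stable the sums are. The order of the members was the same in all 5 alternatives tried, and all 5 pairs of neighbours remained separated in each. Other library sizes scale every gene of a library alike, so they could not change an order that held in both libraries. Counts on either strand added 1 read to the members, at Mir99b in replicate 2, and could not change it either. Only the values per base of hairpin, an alternative chosen after seeing the data, could have altered the order. In all alternatives tried for the exact binomial test, 5 of 6 members were called. Each member's log2 ratio kept its side of the threshold and, where called, its direction. Over all genes, 169 of 449 were called with TMM sizes and 186 of 462 with counts on either strand. With at least 1 and at least 100 counts in all, 170 of 741 and 175 of 300 were called. At the members' depth 85.2% of genes were called as reported, so a steady 5 of 6 is not particular to the members. The number of mature sequences with a copy elsewhere stayed at 2 when they were trimmed to 22, 20 or 18 bases, alternatives also chosen after seeing the data. No paired analysis was possible because there is only 1 group. The planned search in the genome was not run, so copies outside annotated hairpins were not looked for. Depth limits no member's level, as the lowest had 1186 counts in a library, but 2 libraries limit what can be said of the spread.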

Other observations

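With 2 libraries the pattern of a gene across samples is a single ratio. Of the 99 other genes averaging 1000 CPM or more, those nearest to the summed members (log2 ratio -0.10) were Mir23b at -0.11 (8668 ± 483 CPM), Mir484 at -0.08 (2102 ± 79.8 CPM) and Mir25 at -0.08 (1287 ± 47.3 CPM). They differed from the members' ratio by 0.02 each on the log2 scale.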
